A study of Hevea brasiliensis with 6 samples.

Results

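Cold at 4 °C was applied to leaves of 2 clones of the rubber tree, Hevea brasiliensis, and 100 assembled transcripts (unigenes) were chosen whose level after 1 h lay higher than at control in ‘Reken501’ and lower than at control in ‘93–114’. They were selected on the measured fragment counts of the control and 1 h libraries, as the 100 highest of the 48176 unigenes whose mean over the 6 libraries reached 30 fragments, out of 167072 unigenes in all. For each unigene, the log2 ratio of 1 h to control in ‘Reken501’ and the log2 ratio of control to 1 h in ‘93–114’ were taken, and the smaller of these 2 values set its rank. The changes at 1 h, and the differences between the clones at control and 1 h, are therefore a description of the choice. Calls on them are given below as part of that description and not as findings. The 24 h libraries entered the choice only through the mean and the scaling.

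The study treated 1-year-old plants of the cold-sensitive clone ‘Reken501’ and the cold-resistant clone ‘93–114’, all from 1 research station. Control plants of each clone were left unchilled, and the others were held at 4 °C for either 1 h or 24 h. Mature leaves of 3 plants were mixed into 1 pool per condition, so that the 6 libraries, 1 for each clone and time, have no replicate check, and every test compares a pair of libraries and not the conditions. Each clone is 1 genotype, so that a difference between the clones cannot be told apart from one between their pools. The labelled tissue could not be checked against leaf markers, because gene names are not given in the tables and 0 of 50196 genes of the RefSeq annotation share an ID with a unigene. For the same reason the members are given by their IDs, without roles.

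The rubber tree is a tropical species whose leaves are damaged by chilling. Plants sense a fall in temperature within minutes, and calcium signals and the CBF/DREB transcription factors then switch on cold-regulated genes. Jasmonate signalling, heat shock proteins and enzymes that scavenge reactive oxygen species are other known branches of the cold response, and transcripts that respond early may return or move further as cold goes on.

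Each library held 20.4 to 21.9 M fragments on the unigenes. Levels below are log2 values of the fragment count after adding 0.5, relative to the library total, with the library's median over the 90162 unigenes that averaged 10 fragments or more subtracted. The median mattered here, because the scale it gave, divided by the library total, differed between libraries. Relative to the geometric mean of the 6 libraries, this ratio ran from 0.773 in ‘93–114’ after 1 h to 1.27 in control ‘93–114’. For a call, the fragments of 2 libraries were compared by the exact conditional binomial test (two-sided), and a unigene had to reach a Benjamini-Hochberg adjusted p of 0.001 and a ratio of 2-fold. The adjustment ran over every unigene read in at least 1 of the libraries compared. In bulk leaf tissue, fewer cells of a type and less RNA per cell cannot be told apart. The intervals below are at the 95% level and cover counting error only.

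The members were weakly read unigenes. Their median was 25.5 fragments in control ‘Reken501’, 76.5 at 1 h and 60.5 at 24 h. In ‘93–114’ the medians were 79 fragments at control, 13 at 1 h and 35.5 at 24 h. The 100 unigenes together took 0.0224% of the fragments of control ‘Reken501’ and 0.0723% after 1 h, against 0.0628% of control ‘93–114’ and 0.0110% after 1 h. The library with the most fragments was ‘Reken501’ after 1 h for 35 members, ‘Reken501’ after 24 h for 22, control ‘93–114’ for 42 and ‘93–114’ after 24 h for 1. The library with the fewest was ‘93–114’ after 1 h for 70 members and control ‘Reken501’ for 25.

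**Figure D1:**
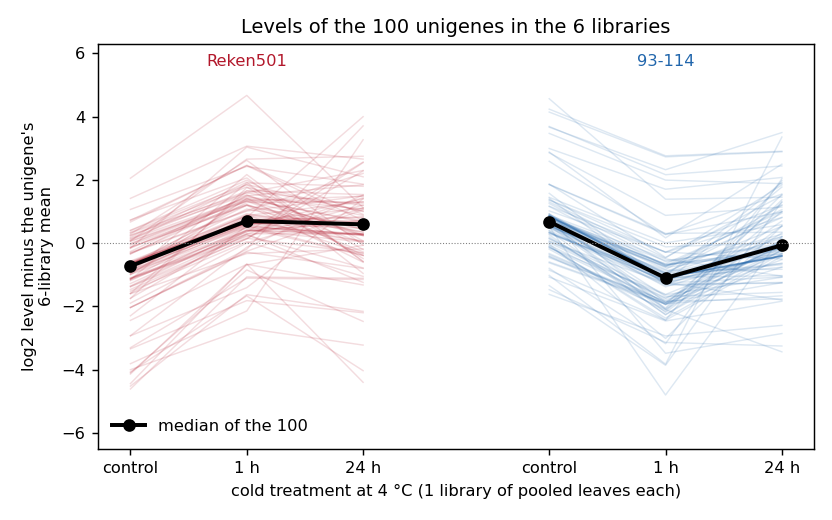
Level of the 100 unigenes in the 6 libraries, as log2 level minus each unigene's mean over the 6 libraries, with 1 line per unigene and clone and the median of the 100 in black. In ‘Reken501’ the median is low at control and higher after 1 h and 24 h, and in ‘93–114’ it is lowest after 1 h and lies between the control and 1 h values after 24 h.

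Per length, as deposited FPKM (the count divided by the unigene's length in kilobases and by the library's M fragments), the members of ‘Reken501’ had a median of 1.17 before cold, 3.48 at 1 h and 3.21 at 24 h. In ‘93–114’ the median FPKM was 3.97, 0.689 and 1.98. Over all 48176 unigenes the median FPKM was 4.12, 3.83 and 3.66 for ‘Reken501’, and 4.28, 2.76 and 2.67 for ‘93–114’. The members' median thus lay below that of the 48176 unigenes in every library, by little in control ‘93–114’ and cold-treated ‘Reken501’ and by most in control ‘Reken501’ and in ‘93–114’ after 1 h. Their median length was 860.5 bases (159 to 3848), against 1217 for all 48176. The median of their mean fragments was 45.8, against 79.7, so that many stood near the minimum of 30. Only 10 members had 30 or more fragments in all 6 libraries, 91 had a fragment in every library, and 63 would have kept a mean of 30 without their highest library.

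The chosen change after 1 h had a median log2 ratio of 1.54 in ‘Reken501’ (range 1.27 to 3.78) and of -1.70 in ‘93–114’ (range -5.33 to -1.29), against 0.02 and 0.05 over all 48176 unigenes. In ‘Reken501’, 65 members were called higher after 1 h, where 3.17% of all unigenes were. In ‘93–114’, 74 were called lower, where 4.76% were. Both calls were met by 47 members, of 91 unigenes in all, or 0.19%, and 8 members met neither. Since the choice used these contrasts, nothing is read from these shares. The counting interval of the ‘Reken501’ change reached 0 for 10 members, and that of the ‘93–114’ change for 5.

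**Figure D2:**
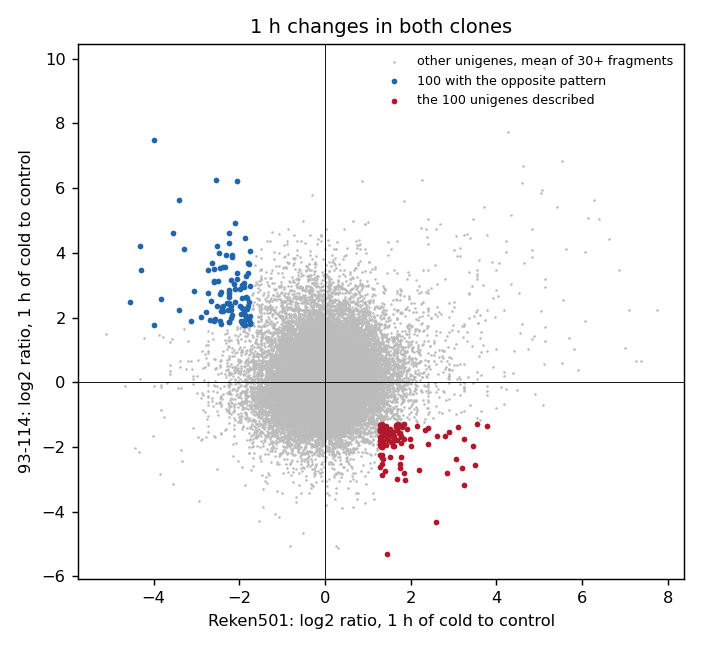
Log2 ratio of 1 h of cold to control in ‘Reken501’ (horizontal axis) and in ‘93–114’ (vertical axis) for the unigenes averaging 30 fragments or more, with the 100 members marked beside the others. The members occupy the corner from 1.27 upward in ‘Reken501’ and from -1.29 downward in ‘93–114’, which the choice fixed.

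The 1 h pattern was, for most members, a change in the order of the clones. At control the members stood higher in ‘93–114’, with a median log2 ratio of ‘93–114’ to ‘Reken501’ of 1.50 (-0.13 over all unigenes), and after 1 h they stood lower, with a median of -2.13 (-0.11 over all). At control, 55 members were called higher in ‘93–114’ (12.5% of all unigenes) and 3 lower (15.8%). After 1 h, 6 were called higher (16.4%) and 66 lower (15.7%). The choice used these libraries and favours a fall of this ratio from control to 1 h, so nothing is read from these shares. By the sign of the ratio, 70 members changed order, 15 were higher in ‘93–114’ both times and 15 were higher in ‘Reken501’ both times.

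The first-ranked member, Unigene10491_All, was read almost only in ‘93–114’. In ‘Reken501’ its fragments were 0 (control), 4 (1 h) and 1 (24 h), and in ‘93–114’ it had 220, 15 and 17 in the same order, which is kept for all members below. The counting interval of its ‘Reken501’ change at 1 h began at a log2 ratio of -0.52, so that these counts also allow a level below control. In ‘93–114’ it was 9.05-fold lower after 1 h, with a log2 ratio of -3.18 (interval -4.08 to -2.47). Its rank thus rested on 4 fragments in ‘Reken501’, while the fall in ‘93–114’ rested on 220. CL13590.Contig1_All was alike, with 1, 6 and 6 fragments in ‘Reken501’ and 118, 11 and 62 in ‘93–114’, and its ‘Reken501’ ratio of 1 h to control was 4.59 on the linear scale, with a log2 interval from -0.37 to 8.19. Unigene1609_All had 1, 15 and 24 fragments in ‘Reken501’ and 207, 33 and 43 in ‘93–114’, so that it was low in every ‘Reken501’ library beside control ‘93–114’.

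Unigene41302_All had 4, 30 and 16 fragments in ‘Reken501’ and 71, 6 and 56 in ‘93–114’. After 1 h its ‘Reken501’ level was 7.18-fold that of control and its ‘93–114’ level was 7-fold lower, and after 24 h the ‘93–114’ level was near control again. Unigene44915_All had 7, 80 and 49 fragments in ‘Reken501’ and 41, 4 and 23 in ‘93–114’. Here the clones crossed at 1 h by 11.4-fold up and 5.87-fold down, and after 24 h the clones differed by a log2 ratio of -0.69 (interval -1.49 to 0.03), which was not called.

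Unigene44338_All had 11, 90 and 86 fragments in ‘Reken501’ and 44, 5 and 6 in ‘93–114’. Both clones stood close to their 1 h level at 24 h, and the ‘93–114’ library was 10.2-fold below the ‘Reken501’ library, a difference that was called. CL3250.Contig16_All had 21, 81 and 113 fragments in ‘Reken501’ and 76, 12 and 29 in ‘93–114’. For CL4867.Contig1_All the fragments were 16, 82 and 50 against 61, 10 and 14. Both were high in ‘Reken501’ and low in ‘93–114’ after 1 h. Of the differences between the clones after 24 h the first was called, with a log2 ratio of -1.56 (interval -2.22 to -0.98), and the second, at -1.42 (interval -2.43 to -0.58), was not.

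The member with the most fragments, CL4746.Contig1_All (1890 bases), had 344, 3086 and 2922 fragments in ‘Reken501’ and 1244, 232 and 700 in ‘93–114’, 8528 in all. It was called in both clones at 1 h, 9.49-fold higher in ‘Reken501’ (log2 interval 3.09 to 3.41) and 3.41-fold lower in ‘93–114’ (-1.98 to -1.57). In FPKM it ran from 8.58 at control to 76.2 after 1 h in ‘Reken501’ and from 32.3 to 5.78 in ‘93–114’. This unigene held 96.3% of the fragments of its 5-contig cluster, so that the cluster as a whole followed it. After 24 h it was still 8.73-fold above control in ‘Reken501’ and at a log2 ratio of -0.29 to control in ‘93–114’, and the libraries of the clones differed by -1.68 (interval -1.80 to -1.56), which was called.

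At the limit of the choice, Unigene13157_All, in place 98, had 19, 44 and 61 fragments in ‘Reken501’ against 30, 5 and 35 in ‘93–114’. In place 99, CL5142.Contig1_All had 51, 117 and 73 against 41, 5 and 24. The 100th, Unigene44022_All, had 12, 28 and 32 against 92, 21 and 65. Within ‘93–114’ all 3 had their fewest fragments at 1 h and more at 24 h. Just outside, CL7947.Contig8_All had 30, 69 and 49 fragments in ‘Reken501’ against 41, 7 and 9 in ‘93–114’. The next outside, Unigene27149_All, had 84, 192 and 236 against 9, 1 and 2. After it, CL44.Contig5_All had 34, 78 and 51 against 39, 8 and 5. Of these, Unigene27149_All was far lower in ‘93–114’ than in ‘Reken501’ already at control. The smaller of the 2 changes was 1.27 at the 100th place and 1.27 just outside, so that the limit falls in a continuous run of values.

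After 24 h of cold, in the libraries that did not rank the members, the difference between the clones was mixed in direction. Over the members, the log2 ratio of ‘93–114’ to ‘Reken501’ had a median of -0.53 (quartiles -1.22 and 0.30), against -0.10 over all 48176 unigenes. It was below 0 for 71 members and above 0 for 29, where 54.6% of all unigenes were below 0. By the exact conditional binomial test, 23 members were lower in ‘93–114’, where 12.6% of all unigenes were, and 15 were higher, where 13.5% were. The count of lower members was above that background, and 62 members were not called. The count of higher members was close to it, but 8 of the 15 had at most 10 fragments in every ‘Reken501’ library. Among the 23 lower members, some reached the minimum mean only through ‘Reken501’. An example is Unigene2993_All, with 16, 3 and 4 fragments in ‘93–114’ at control, 1 h and 24 h. How many of the 23 did so was not counted, so the choice may have contributed to their number. Scaled to library totals, 39 members were called lower, where 23.3% of all unigenes were, and the median was -0.93, with -0.50 over all unigenes. When edgeR's exact test was given a coefficient of variation of 0.4 between pools, which these libraries do not measure, 2 were called lower and 2 higher. The share of all unigenes at this setting is not given.

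**Figure D3:**
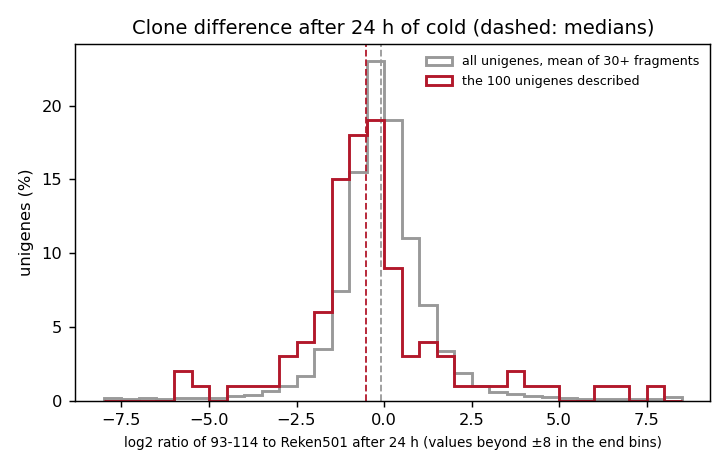
Distribution of the log2 ratio of ‘93–114’ to ‘Reken501’ after 24 h of cold for the 100 members and for all unigenes averaging 30 fragments or more, in percent of unigenes, with dashed lines at the medians. The members' median of -0.53 lies below that of all unigenes at -0.10, with a tail on both sides.

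The largest differences with a lower ‘93–114’ level after 24 h belonged to a pair of contigs of 1 cluster and to CL1609.Contig14_All. CL3017.Contig2_All had 25, 144 and 158 fragments in ‘Reken501’ and 47, 1 and 2 in ‘93–114’. CL3017.Contig7_All had 19, 168 and 90 in ‘Reken501’ and 34, 3 and 1 in ‘93–114’. Both were near 0 in cold-treated ‘93–114’ and high in cold-treated ‘Reken501’, with a 24 h log2 ratio between the clones of -5.61 (interval -8.98 to -4.05) and -5.53 (-11.43 to -3.60). CL1609.Contig14_All differed in another way, with 162, 481 and 373 fragments in ‘Reken501’ and 21, 5 and 7 in ‘93–114’. It was higher in ‘Reken501’ in every library, and its ‘93–114’ change at 1 h, a log2 ratio of -1.31 (interval -3.18 to 0.03), was not called.

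The 3 members with the highest fitted ratios of ‘93–114’ to ‘Reken501’ after 24 h had few ‘Reken501’ fragments at any time, and for those with 0 fragments the place in this order depends on the 0.5 fragments added. With 0 taken as the 3 fragments it allows, the ratio of CL11977.Contig2_All was 20, below the 24.2 of Unigene53813_All. CL15363.Contig2_All had 0, 6 and 0 fragments in ‘Reken501’ and 149, 37 and 91 in ‘93–114’, and the counting interval of its 24 h log2 ratio between the clones began at 4.98. CL11977.Contig2_All had 0, 2 and 0 against 161, 38 and 46, with an interval that began at 3.96. Unigene81183_All had 1, 3 and 2 fragments against 491, 112 and 134, a ratio of 70 at 24 h with a log2 interval from 4.57 to 9.51. For these unigenes every ‘93–114’ library was above every ‘Reken501’ library, and the lower 1 h level in ‘93–114’ was measured on many fragments while the higher 1 h level in ‘Reken501’ was not.

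In 8 members every ‘Reken501’ library had 10 fragments or fewer, and for 7 of them the counting interval of the ‘Reken501’ change reached 0. All 8 were among the 15 members called higher in ‘93–114’ after 24 h. They reached the minimum mean only through ‘93–114’, so that a higher level in that clone came largely with the choice. Among the other 92 members, 7 were called higher, and the median 24 h log2 ratio between the clones was -0.59. A ‘93–114’ level of 10 fragments or fewer in every library was found for 1 member. This limit is harder to meet in ‘93–114’, because the choice required a fall from its control. CL1609.Contig14_All, with 21, 5 and 7 fragments there, reached the minimum mean only through ‘Reken501’ but is not counted by it. The median of -0.59 left out members low in ‘Reken501’ and kept those low in ‘93–114’.

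The comparisons of 24 h with control share their control libraries with the choice, so they are given side by side and not as independent support. The choice favours a low control level in ‘Reken501’ and a high one in ‘93–114’. It therefore favours higher calls in the first and lower calls in the second, also where both are met by 1 member. In ‘Reken501’, 48 members were higher than control (6.69% of all unigenes) and 0 were lower (7.22%), with a median log2 ratio of 1.28, against -0.08 over all unigenes. In ‘93–114’, 30 were lower (7.15%) and 8 were higher (9.79%), with a median of -0.86, against -0.05. The 30 became 56 with library totals, where 28.7% of all unigenes were lower, and 20 with DESeq2 size factors, where 6.22% were. By level, 59 members lay between control and 1 h in ‘Reken501’ after 24 h, 28 above the 1 h level and 13 below control. In ‘93–114’, 72 lay between control and 1 h, 22 above control and 6 below the 1 h level.

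Against the 1 h libraries, which the choice also used, 17 members were lower after 24 h in ‘Reken501’ (4.6% of all unigenes) and 11 were higher (4.78%), with a median log2 ratio of -0.34 (-0.09 over all). In ‘93–114’, 30 were higher (3.14%) and 0 were lower (2.95%), with a median of 0.93 (-0.11 over all). The members were chosen for a high 1 h level in ‘Reken501’ and a low one in ‘93–114’. The choice therefore favours a lower 24 h level in the first and a higher one in the second, and no recovery is read from these shares. The 0 lower members in ‘93–114’ became 1 when a 2-fold ratio alone was required. The members called higher after 24 h than after 1 h in both clones numbered 10 (1.54% of all unigenes), and 53 were called in neither (86.9%).

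**Figure D4:**
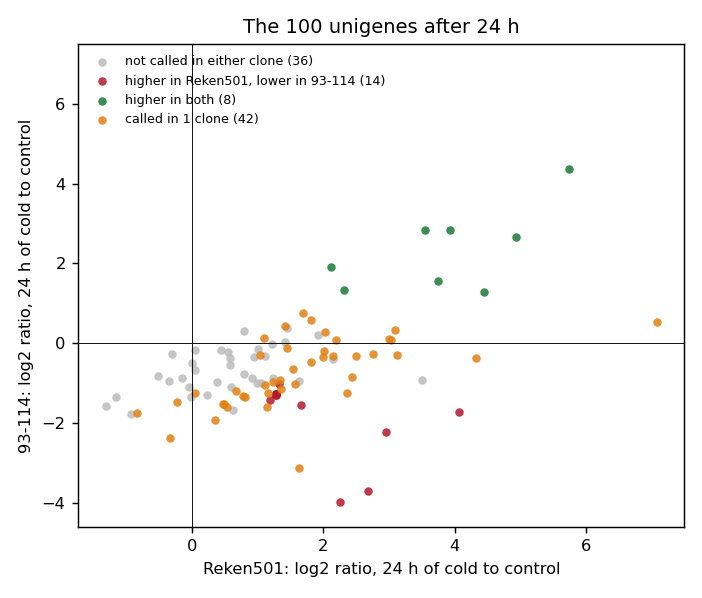
Log2 ratio of 24 h of cold to control in ‘Reken501’ (horizontal axis) and ‘93–114’ (vertical axis) for the 100 members, coloured by which calls they met. Of the members, 14 were higher in ‘Reken501’ and lower in ‘93–114’, 8 were higher in both and 36 were called in neither.

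Sorted by their calls at 24 h against control, 14 members were higher in ‘Reken501’ and lower in ‘93–114’, of 46 unigenes in all, or 0.096%. They came from 6 clusters or single unigenes, because 8 of them were contigs of cluster CL2715. The others were Unigene44338_All, Unigene1609_All, CL3017.Contig2_All, CL3017.Contig7_All, CL4867.Contig1_All and Unigene36564_All. Unigene36564_All had 49, 122 and 109 fragments in ‘Reken501’ and 267, 25 and 68 in ‘93–114’. The higher level in ‘Reken501’ alone was called for 26 members (3.22% of all unigenes), the lower level in ‘93–114’ alone for 16 (4.98%) and neither for 36 (75%).

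In 8 members (3.36% of all unigenes) the 24 h level was called higher than control in both clones. For Unigene74479_All, CL7577.Contig2_All, Unigene27299_All, CL2514.Contig12_All and Unigene1768_All among them, the lower 1 h level in ‘93–114’ was not called. Those given here were named after their values were seen. Unigene74479_All had 2, 8 and 130 fragments in ‘Reken501’ and 5, 0 and 78 in ‘93–114’. Unigene27299_All had 19, 52 and 288 in ‘Reken501’ and 30, 6 and 149 in ‘93–114’. CL764.Contig6_All had 75, 173 and 319 in ‘Reken501’ and 87, 22 and 226 in ‘93–114’. Each was highest in the 24 h library in both clones, and the 24 h libraries of the clones differed by log2 ratios of -0.35 (interval -0.78 to 0.06), -0.57 (-0.87 to -0.28) and -0.12 (-0.37 to 0.13), none of them called. CL7577.Contig2_All, with 5, 17 and 163 fragments against 4, 0 and 19, also rose in both clones and was called lower in ‘93–114’ at -2.69 (-3.49 to -2.03).

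Of the members, 55 were contigs of 42 clusters, sets of assembled sequences that the tables group under 1 number, and 45 stood alone. Among all 48176 unigenes, 60.7% were contigs of clusters. Only 4 clusters held more than 1 member, 17 members in all, and contigs of a cluster can share fragments, so these are not independent. Taking 1 member per cluster left 87. The most members, 9, came from CL2715, a cluster of 37 contigs. Of these, 5 contigs (Contig4, Contig14, Contig15, Contig20 and Contig35) had exactly 26, 61, 62, 82, 13 and 23 fragments in the 3 ‘Reken501’ libraries and the 3 ‘93–114’ libraries, and Contig12 and Contig23 had exactly 25, 60, 60, 84, 13 and 23. CL2715.Contig16_All had 48, 120, 118, 122, 26 and 41, and CL2715.Contig21_All had 27, 78, 68, 82, 13 and 25. The sets of identical counts thus entered the list as 7 members in 2 sets, while in all 166 of the 48176 unigenes had the same counts as another contig of their cluster.

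Clusters CL2514 and CL4221 each held 3 members. CL2514.Contig3_All had 135, 469 and 1072 fragments in ‘Reken501’ and 843, 66 and 609 in ‘93–114’. Its mate CL2514.Contig2_All had 41, 98 and 228 against 51, 6 and 28, and CL2514.Contig12_All had 16, 39 and 188 against 20, 2 and 100. All 3 were highest after 24 h in ‘Reken501’, and in ‘93–114’ only CL2514.Contig12_All of these 3 was called different from control at 24 h, higher by a log2 ratio of 2.83 (interval 2.16 to 3.63). In CL4221, Contig2 had 508, 1171 and 424 fragments in ‘Reken501’ against 1000, 179 and 246 in ‘93–114’. CL4221.Contig1_All had 158, 365 and 153 against 160, 26 and 78, and CL4221.Contig5_All had 106, 257 and 141 against 123, 22 and 75. Here the 24 h ‘Reken501’ level was near control again, which set this cluster apart from CL2514 by its values.

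Summed over the contigs, 35 of the 42 clusters lay up in ‘Reken501’ and down in ‘93–114’ after 1 h, and 18 did so by at least 2-fold in both clones. The median log2 ratios of the sums were 0.92 and -1.30. A member held a median of 38.8% of its cluster's fragments (1.85% to 96.9%). Leaving the members out, the other contigs reached a mean of 30 fragments in 28 clusters, of which 15 lay up in ‘Reken501’ and down in ‘93–114’, 2 of them by at least 2-fold in both clones. Their medians were 0.52 and -0.65, while 7 lay up in both clones, 5 down in both and 1 down in ‘Reken501’ and up in ‘93–114’. Contig by contig, 73 of 141 mates with a mean of 30 fragments lay up in ‘Reken501’ and down in ‘93–114’ (51.8%), against 22.9% of 29053 contigs of other clusters. Mates can share fragments with the members that were chosen for this change, so these shares are a description and no test of them was made.

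**Figure D5:**
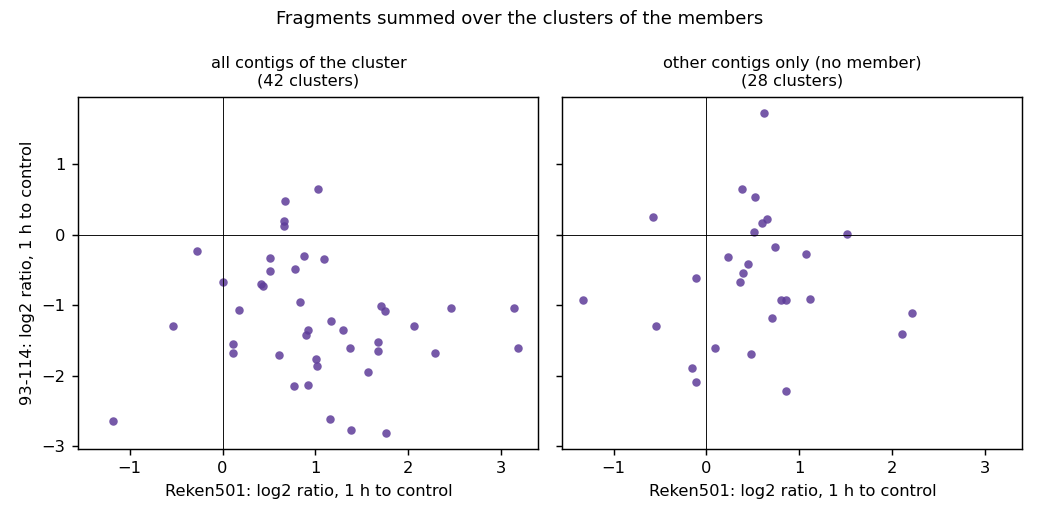
Log2 ratio of 1 h to control in ‘Reken501’ (horizontal axis) and ‘93–114’ (vertical axis) for fragments summed over the clusters that hold members, for all contigs and for the contigs other than the members. The sums of all contigs lie mostly at lower right (35 of 42), and those of the other contigs do so for 15 of 28.

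Set beside the opposite pattern, the one described here was the rarer at 2-fold in both clones. With the scaling used above, 273 of the 48176 unigenes were at least 2-fold up in ‘Reken501’ and 2-fold down in ‘93–114’ after 1 h, and 537 were down in ‘Reken501’ and up in ‘93–114’. TMM (edgeR) and DESeq2 scaling gave 285 against 522 and 279 against 528, but the library totals gave 594 against 353 and totals without the 100 most-read unigenes 459 against 416, so that the order reversed with these. The 100 unigenes of the opposite pattern reached larger changes, with a smaller change of 1.74 at their 100th place, and shared 0 clusters with the members. After 24 h their median log2 ratio between the clones was 1.91. Of them, 69 were called higher in ‘93–114’ (13.5% of all unigenes) and 4 lower (12.6%). They too were chosen on the control and 1 h libraries with the same minimum mean, which a unigene could reach through 1 clone. Nothing is therefore read from these shares.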

How the data were processed

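Leaf RNA of ‘Reken501’ and ‘93–114’ was sequenced by the authors with Illumina sequencing after removal of adapters and low-quality reads. The 4 deposited tables hold, per unigene, the raw fragment counts of 2 libraries, the length in bases and the FPKM that the authors computed from the count, the length and the library total, which was checked to within 5.0e-05. How the unigenes were assembled and counted, and how fragments that match several contigs were shared, is not given in the sources used here. Each table's 4 columns of the authors' own comparison (log2 ratio, direction, p-value and false discovery rate) were not used. Columns of samples outside the series numbered 0.

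Counts were joined over the tables, with absent unigenes at 0, and the control columns that tables share were checked to be identical. The unigenes described, and the lists, were chosen with earlier results of these data known. Analysis used Python 3.11.15, numpy 2.4.6, pandas 2.3.3, scipy 1.17.1 and matplotlib 3.10.9. The exact conditional binomial test was tried on simulated counts that held counting error only, so its calls were not checked against a spread between pools. Backgrounds were taken over the unigenes averaging 30 fragments or more. Alternatives were edgeR 4.0.16 TMM factors and DESeq2 1.42.0 size factors (R 4.3.3), library totals, other pseudocounts, minimum means and thresholds, and the exact test of edgeR at a coefficient of variation set to 0.4. The unigenes named were the 10 of highest rank, the 3 on each side of the limit, the most-read member, the 3 with the largest clone difference in each direction after 24 h and those that share a cluster. A few others were named after their values were seen: Unigene36564_All, Unigene74479_All, Unigene27299_All, CL764.Contig6_All, CL7577.Contig2_All, Unigene1768_All and Unigene53813_All. Gene names, sequences and cell type markers were not analysed here.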

Additional observations from a re-analysis of the deposited data

Results flagged for a closer look

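After 24 h of cold, 14 members were higher than control in ‘Reken501’ and lower than control in ‘93–114’, so that the same treatment gave opposite calls in the 2 clones. Over all unigenes, 46 met both calls, or 0.096%. The difference between the clones was not tested, since each clone has 1 library per time, and the control libraries are those used to choose the members. That choice favours a low control in ‘Reken501’ and a high one in ‘93–114’, and with them this pair of calls. No lasting opposite response is therefore read from the 14. Of the 14, 8 were contigs of cluster CL2715, and 7 of these fell into 2 sets of identical counts. The 14 thus came from 6 clusters or single unigenes. With edgeR's exact test at an assumed coefficient of variation of 0.4, 0 members were below control in ‘93–114’, so that none met both calls. The count of 14 was not worked out for the other settings.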

How the results depend on the processing

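Of 139 values of the members' counts, medians and choice under alternatives, 113 were labelled the same as the value given above, 26 moved and 0 reversed. That label was loose. It covered the 30 members below control in ‘93–114’ becoming 20 with DESeq2 size factors and 42 with totals without the 100 most-read unigenes. It also covered the 23 members lower in ‘93–114’ at 24 h becoming 33 at an adjusted p of 0.05. Outside these values, the order of the opposite 1 h patterns over all unigenes did reverse, to 594 against 353 with library totals and 459 against 416 when the 100 most-read unigenes stayed out of the totals. Scaled to library totals, 39 members had the lower 24 h level in ‘93–114’ and 56 were below control in ‘93–114’, the median clone ratio at 24 h was -0.93, the median 1 h change in ‘93–114’ was -2.41, and 44 members stayed among the 100 highest. Totals without the 100 most-read unigenes gave a 1 h median of -2.09 in ‘93–114’. A log2 ratio of 2 left 12 members lower in ‘93–114’ at 24 h, 26 above control in ‘Reken501’ and 5 below it in ‘93–114’, 7 lower and 7 higher at 24 h than at 1 h in ‘Reken501’ and 17 higher in ‘93–114’. With a 2-fold ratio and no test, 1 member was lower and 49 were higher at 24 h than at 1 h in ‘93–114’. With edgeR's exact test at an assumed coefficient of variation of 0.4, between clones at 24 h 2 members were lower and 2 higher, 1 was above control in ‘Reken501’ and 0 below it in ‘93–114’, and from 1 h to 24 h 0 were lower and 1 higher in ‘Reken501’ and 0 higher in ‘93–114’. The true spread between pools is not measured by 1 library per condition. Shares of all unigenes are not given for the log2 ratio of 2, the 2-fold ratio without a test or the assumed coefficient of variation. They are also not given for the adjusted p of 0.05, the totals without the 100 most-read unigenes or 1 member per cluster. The counts of members at these settings therefore have no background to be read against. Among the 100 highest, 14 members stayed with a minimum mean of 10 fragments, 22 with 100, 1 with no minimum, 59 with contigs summed per cluster and 54 when ranked by the lower 95% counting bound. The cause of these moves was not tested. Taking 1 member per cluster, an alternative chosen after seeing the data, left 20 lower and 15 higher members at 24 h. Ranking 1 contig per cluster, also chosen after seeing the data, kept 87. No paired analysis was possible because each condition has 1 library and the labels give no replicate numbers that pair them.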
